A study of Mus musculus with 30 samples.

Results

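Platelets and peripheral blood mononuclear cells (PBMCs) of mice bearing large subcutaneous melanomas (O group) were compared as 5 platelet libraries and 5 PBMC libraries, which are 10 of the 30 libraries of the series. Members were taken by their sample titles. O group mice were female C57BL/6 mice, 6 to 8 weeks of age at the start, which received 100000 B16F10 cells each, a melanoma line of the same mouse strain, in 100 µl HBSS under the skin of the right flank and were bled on day 14. Mice of C group were inoculated with HBSS without cells, and they were tested in the last comparison only. Mice of S group received 2000 B16F10 cells each and were not tested. Elsewhere the values of C and S group are given only as ranges. All groups share strain, sex and age. Each library held RNA pooled over several mice, namely 3, 4, 5, 3 and 5 mice in pools 1 to 5, and these numbers were the same in both tissues. An n of 5 therefore counts pools, and no library held a single animal. Neither the labels nor the methods state that a platelet pool and a PBMC pool of the same number came from the same mice. Both fractions were prepared from the same EDTA blood samples, platelets from the platelet-rich plasma of a slow spin and PBMCs from the layer below it, and RNA was pooled afterwards. The study counts as many independent experiments as there are pools in a group, for platelets and for PBMCs alike, without stating that a pool number marks the same experiment in both. In C and S group most pools differed in size between the tissues. The platelet samples carry a cell type tag that reads PBMC. Their titles and source names give platelets, and the platelet marker genes described below were high in all 5.

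Platelets are shed from megakaryocytes of the bone marrow, have no nucleus, and so carry RNA that their parent cells made or packed. The PBMC fraction holds nucleated lymphocytes, monocytes and dendritic cells, which go on transcribing after blood is drawn. Reticulocytes, the youngest red cells, have also lost their nucleus but keep globin and other RNA for some time, and platelet aggregates, reticulocytes and granulocytes can all enter either fraction.

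The 10 libraries held 12259036 to 19942596 assigned reads in platelets and 13390983 to 14279219 in PBMCs, with 16681 to 19298 genes detected in platelets and 20540 to 22041 in PBMCs. Hemoglobin genes took 39.0%, 4.02%, 21.9%, 4.29% and 17.2% of the counts of platelet pools 1 to 5 and 24.5%, 18.2%, 15.1%, 19.2% and 6.52% of PBMC pools 1 to 5. Platelet pool 1 thus gave the largest share of any library to hemoglobin and had the fewest genes detected. PBMC pools 1 and 4, the pools of 3 mice, stood apart from the other PBMC pools in other ways. Their ratio of alpha to beta globin counts was 4.21 and 4.70, against 0.855, 0.935 and 0.778 in PBMC pools 2, 3 and 5 and 2.61 to 3.80 in platelets. The ribosomal RNA gene CT010467.1 stood at 1.71 and 1.12 CPM (counts scaled to a fixed library total) in PBMC pools 1 and 4 and at 886, 876 and 955 CPM in PBMC pools 2, 3 and 5, before scaling between libraries. The study purified mRNA from total RNA with poly-T beads, and the part of that step in this level was not tested. In the PBMC libraries of C and S group the globin ratio was 0.725 to 1.01 and CT010467.1 stood at 333 to 908 CPM. Results that rest on pools 1 and 4 are given with and without them, apart from the list values of O against C group. The part of library preparation, pool size or the mice in these differences cannot be told apart.

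Platelets and PBMCs of O group differed in most genes tested. Platelets were higher in the receptors, granule proteins and cytoskeleton of platelets, in a set of genes usually linked to endothelium, in replication-dependent histones and in mitochondrially encoded genes. PBMCs were higher in monocyte and T cell genes, immediate early genes, cytokines and a list of noncoding RNAs. Of 13627 genes that passed the filter on low counts, 3997 (29.3%) were higher and 4189 (30.7%) lower in platelets at an adjusted P under 0.05 (edgeR's quasi-likelihood test with Benjamini-Hochberg adjustment, which also gives every adjusted P below unless another test is named). With a change of at least 4-fold added, 1265 (9.28%) were higher and 1252 (9.19%) lower. The median log2 fold change over all genes tested was 0.013 on this scale, and -1.02 when counts were scaled to library totals alone, a setting added after seeing the data. Library totals gave 1253 genes higher and 7209 lower, so the directions given here are relative to the median gene. The 10 endothelial genes were all higher on both scales. Adhesion receptors were higher for 14 of 16 on library totals, agonist receptors and signalling genes for 19 of 32 (3 lower), granule genes for 16 of 24 (3 lower), cytoskeleton genes for 12 of 20 (1 lower) and histones for 20 of 27. Of the genes named below, Gata2, F2r, F2rl3, F13a1, Lat, Eomes, Clec9a, Zbtb46, Lamp1, Ifit1, Ifit3b and Atp5f1 were then not called, and Fli1, Ndufa9, Sdhd, Rpl8, Rpl13 and Spib turned to a value under 0 without being called. Values did not overlap between the 5 platelet and 5 PBMC pools for 6125 of the genes called, 44.9% of those tested. Levels are CPM after scaling by the trimmed mean of M-values (TMM) over the 10 libraries, and n was 5 pools per tissue. Fold changes are platelets over PBMCs on the log2 scale, with a standard error (SE) after the ± sign. This SE was worked back from the test, as the absolute log2 fold change divided by the square root of the F value. Levels are not corrected for gene length, so they are compared between libraries and not between genes. Genes given as the exceptions of a list were named after their values were seen. In bulk RNA, fewer cells of a type and less RNA per cell cannot be told apart.

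**Figure D1:**
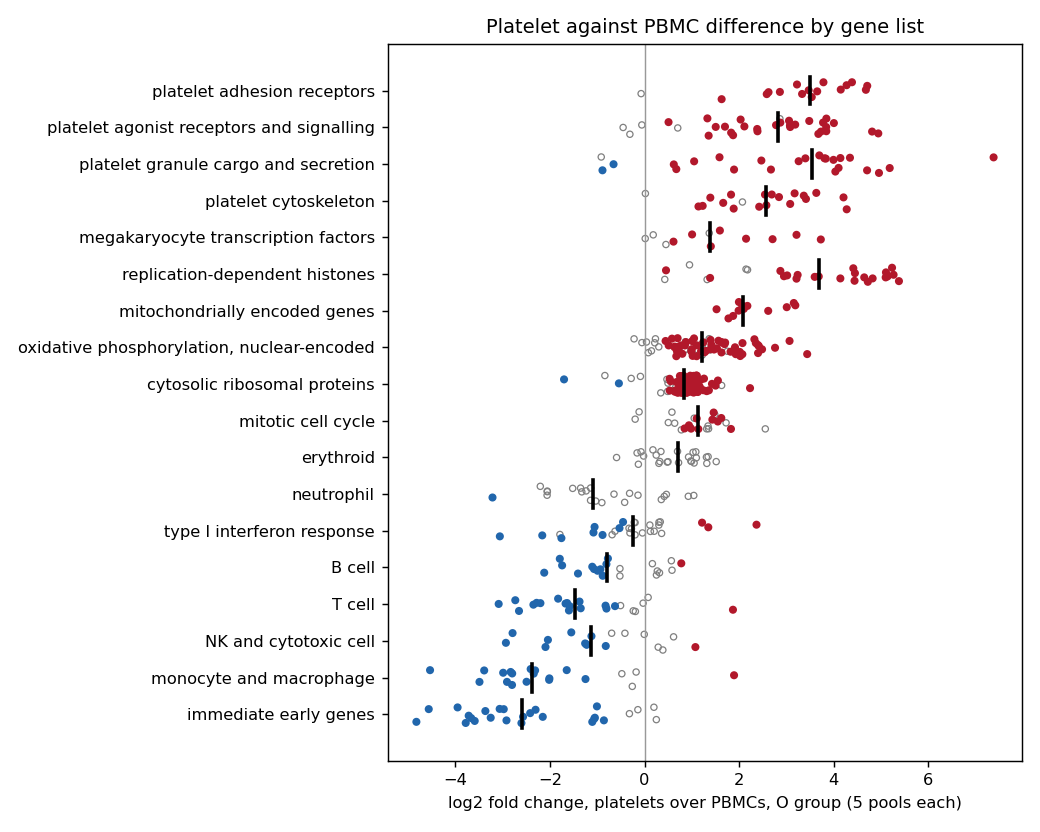
Log2 fold change of platelets over PBMCs in O group (x axis) for each tested member of 18 gene lists (rows). Each point is 1 gene, filled red where called higher in platelets, filled blue where called lower and open where not called. The black bar is the median of the list. Of the lists drawn, replication-dependent histones had the highest median, 3.69, and immediate early genes the lowest, -2.59. The endothelial list is not drawn.

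Receptors by which platelets bind the vessel wall and each other were higher in platelets for 15 of 16 genes tested, 14 of them by at least 4-fold, with a median log2 fold change of 3.51. Itga2b (ENSMUSG00000034664, chr11:102453297-102470122) encodes the alpha chain of the fibrinogen receptor. Its levels were 13692, 13325, 6311, 16454 and 3785 CPM in platelet pools 1 to 5 and 1839, 388, 451, 933 and 277 CPM in PBMC pools 1 to 5. The groups did not overlap (log2 fold change 3.78 ± 0.67, adjusted P = 0.000646), and PBMC pool 1, at 1839 CPM, was the highest of the PBMC pools. The chains of the von Willebrand factor receptor moved with it, Gp1ba by 3.47 ± 0.62, Gp9 by 4.39 ± 0.78 and Gp5 by 3.54 ± 0.54 on the log2 scale. Gp6, a collagen receptor named after its values were seen, was higher by 4.15 ± 0.51. Of the receptors for soluble agonists and their signalling proteins, 27 of 32 were higher and none lower, with 20 past 4-fold and a median of 2.82. P2ry12 (ENSMUSG00000036353, chr3:59216272-59262871), the ADP receptor blocked by clopidogrel, stood at 130.3, 1500.1, 519.9, 753 and 332 CPM in platelets. In PBMCs it stood at 20.8, 21.99, 24.5, 28.8 and 19.04 CPM. All platelet pools lay above all PBMC pools, with platelet pool 1 lowest and pool 2 highest among platelets (log2 fold change 4.81 ± 0.59, adjusted P = 6.61e-05). Among the thrombin receptors, F2rl2, the cofactor that presents thrombin on mouse platelets, was higher by 3.68 ± 0.70 (adjusted P = 0.001) and F2rl3, the receptor that signals, by 2.38 ± 0.89 (adjusted P = 0.0375). F2r, the thrombin receptor of many other cells, also passed the test, at 1.83 ± 0.62 (adjusted P = 0.0254). Neither call held when each library was left out in turn. F2r was not called without PBMC pool 2, 3 or 5 or without platelet pool 1 or 4, where its adjusted P was 0.0549 to 0.0664, nor was F2rl3 without PBMC pool 2, 3, 4 or 5 or without platelet pool 1 or 4 (adjusted P = 0.0643 to 0.0888).

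Granule cargo and the secretion machinery were higher in platelets for 21 of 24 genes and lower for 2, with a median of 3.55. Pf4 (ENSMUSG00000029373, chr5:90772435-90773383), a chemokine stored in alpha granules, stood at 14322, 10419, 4978, 18335 and 2102 CPM in platelets and at 983, 148, 168, 527 and 94.4 CPM in PBMCs. The groups did not overlap, and on the TMM scale pools 1 and 4 were the highest pools within each tissue (log2 fold change 4.71 ± 0.87, adjusted P = 0.000818). Ppbp, the precursor of another alpha granule chemokine, was higher by 4.14 ± 0.76, Thbs1, an adhesive matrix protein, by 2.47 ± 0.41, and Vwf, the ligand of the Gp1ba complex, by 3.83 ± 0.65. Sparc, a matrix protein of granules named after its values were seen, stood between 19.2 and 58.00 CPM in platelets and between 0.109 and 0.345 CPM in PBMCs, a log2 fold change of 7.38 ± 0.43 (adjusted P = 2.76e-06). The 2 members that were lower, Nbeal2 (-0.89 ± 0.16) and Lyst (-0.66 ± 0.23), encode large proteins needed to form or sort granules in the parent cell and in leukocytes. Lyst lost its call without PBMC pool 1 or 4 or without platelet pool 2, 3, 4 or 5 (adjusted P = 0.057 to 0.105). The cytoskeleton list was higher for 18 of 20 genes and lower for none, with a median of 2.56. Tubb1 (ENSMUSG00000016255, chr2:174450695-174457882), the beta tubulin of the ring of microtubules around a platelet, stood at 2847, 4348, 2016, 4008 and 1368 CPM in platelets. PBMC pools held 674, 154, 216, 441 and 131 CPM of it. No PBMC pool reached the lowest platelet pool, and PBMC pools 1 and 4 again stood highest among PBMCs (log2 fold change 3.17 ± 0.55, adjusted P = 0.00054). Tmsb4x, which binds free actin, was higher by 4.28 ± 0.64 (adjusted P = 0.000221) and Tuba8, an alpha tubulin, by 3.41 ± 0.56. Tuba4a, another alpha tubulin, had a log2 fold change of 2.07 ± 0.95 that did not pass the test (adjusted P = 0.0814), and its level moved with the pool number instead (adjusted P = 0.00446 for the pool term described below).

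Transcription factors that direct megakaryocytes were higher in platelets for 8 of 12 genes and lower for none, 4 of them past 4-fold, with a median of 1.39, and on library totals 4 were higher and 2 lower. Gata1 (ENSMUSG00000031162, chrX:7959260-7978071), which red cell and platelet precursors share, stood at 176, 178, 93.9, 139 and 62.8 CPM in platelets and at 55.99, 7.62, 10.98, 18.6 and 6.41 CPM in PBMCs. PBMC pool 1 was the highest PBMC pool and lay close to platelet pool 5 (log2 fold change 2.71 ± 0.61, adjusted P = 0.00273). Gata2 was higher by 1.40 ± 0.31 (adjusted P = 0.00239), Nfe2, needed for platelet release, by 2.15 ± 0.50 (adjusted P = 0.00329), and Fli1 by 0.61 ± 0.18 (adjusted P = 0.0119).

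All 10 tested genes of the endothelial list were higher in platelets, each by at least 4-fold, and all 10 were also called higher in each of the 17 other fits of this comparison. Epas1 (ENSMUSG00000024140, chr17:86753700-86833410), an oxygen-sensing transcription factor, is not in that list and was named for its fold change. It stood at 54.3, 122, 81.5, 191 and 147 CPM in platelets and 3.52, 1.86, 3.50, 3.16 and 3.05 CPM in PBMCs. PBMC pools varied little, and each platelet pool was more than 10 times the highest of them (log2 fold change 5.30 ± 0.37, adjusted P = 5.08e-06). Cdh5, the cadherin of endothelial junctions, was at 2.97, 22.5, 15.7, 23.1 and 20.6 CPM in platelets and 0.138, 0.342, 0.935, 0.544 and 0.679 CPM in PBMCs, with platelet pool 1 lowest (log2 fold change 4.96 ± 0.58, adjusted P = 5.35e-05). Kdr, a receptor for vascular endothelial growth factor, and Tie1, a partner of the angiopoietin receptor, were higher by 4.42 ± 0.40 and 4.60 ± 0.57. Tek, the angiopoietin receptor itself, was found at 2.97 to 10.4 CPM in every platelet pool and had no count in 4 of the 5 PBMC pools. The summed level of the list was 567.4 to 1647 CPM in platelets and 109.2 to 168.2 CPM in PBMCs, with no overlap. Several genes of this list are also transcribed in megakaryocytes, and the part of endothelial cells in the result was not tested.

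The remaining genes with the largest fold changes at a mean of 100 CPM or more in platelets were Hmga2, Gng11, Gm6634, Gm11274, Hist1h2bn, mt-Rnr1 and mt-Rnr2. Hmga2 (ENSMUSG00000056758, chr10:120361275-120476469), a chromatin protein of fetal and early blood precursors, stood at 44.9, 213, 72.4, 127 and 46.04 CPM in platelets and 2.07, 2.35, 2.29, 2.29 and 1.32 CPM in PBMCs (log2 fold change 5.61 ± 0.50, adjusted P = 1.35e-05). Platelet pool 2 was highest and the groups did not overlap. Gng11 (ENSMUSG00000032766, chr6:4003904-4008445), a subunit of heterotrimeric G proteins, stood at 2788, 11655, 5201, 7340.3 and 2387 CPM in platelets and 169, 140.0, 141, 179.5 and 88.9 CPM in PBMCs (log2 fold change 5.36 ± 0.54, adjusted P = 2.49e-05). Platelet pool 2 was again the highest, and no platelet pool fell to the PBMC levels. The long noncoding RNA Gm6634 (chr3:70772379-70807291) was higher by 5.54 ± 0.60, and Gm11274 (chr13:21769125-21770476), a noncoding RNA within the large histone cluster of chromosome 13, by 5.32 ± 0.74. Replication-dependent histone genes, which are made in S phase, were higher in platelets for 22 of 27 genes and lower for none, with a median of 3.69. Hist1h2bn (chr13:21754123-21754503) was higher by 5.38 ± 0.77, Hist1h1c by 3.60 ± 0.56, Hist1h2bc by 4.42 ± 0.53 and Hist1h2be by 4.45 ± 0.44. Hist1h1e had a log2 fold change of 1.32 ± 0.68 and was not called (adjusted P = 0.112). Histone genes of a family are close in sequence, so reads may have been split between them and single members are uncertain. The libraries were made from RNA taken up on poly-T beads, which bind RNA with a poly(A) tail. The part of that step in the levels of histone genes, mt-Rnr1 and mt-Rnr2 was not tested. The mitotic list, by contrast, was higher for 10 of 24 genes with a median of 1.12 (6 without PBMC pool 3, and on library totals none higher and 2 lower), and it varied strongly with the pool.

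Transcripts of the mitochondrial genome were higher in platelets for all 12 genes tested, 7 of them past 4-fold, while on library totals 8 of 12 were called, all higher, and mt-Nd1, mt-Nd2, mt-Nd4l and mt-Nd6 were not. mt-Rnr1 and mt-Rnr2, the mitochondrial ribosomal RNAs, rose most, by 5.62 ± 0.72 and 5.40 ± 0.76. mt-Co1, which encodes a subunit of cytochrome c oxidase, stood at 25692, 14869.6, 5921, 18497 and 7507 CPM in platelets and 5637, 2924, 2481, 3571 and 2698 CPM in PBMCs. On the TMM scale pools kept the same order in both tissues, from pool 1 at the top to pool 3 at the bottom, although mitochondrial genes took 5.39% of the counts of platelet pool 1, the smallest share among platelet pools (log2 fold change 2.07 ± 0.51, adjusted P = 0.00468). Nuclear genes for oxidative phosphorylation, the respiratory chain and ATP synthase, were higher for 54 of 76 and lower for none, at a smaller median of 1.22, while on library totals 12 were higher and 7 lower. Cox5a was higher by 3.44 ± 0.45 (adjusted P = 9.84e-05), Atp5f1 by 1.20 ± 0.35, Ndufa9 by 0.87 ± 0.16 and Sdhd by 0.63 ± 0.12. Cytosolic ribosomal protein genes were higher for 75 of 87 genes and lower for 2 (Rps27a and Rps10), with only 1 past 4-fold and a median of 0.83, while on library totals 1 was higher and 6 lower. Neither Rps27a nor Rps10 was called without PBMC pool 2 or without platelet pool 2, 4 or 5 (adjusted P = 0.0524 to 0.114), and Rps27a also lost its call without PBMC pool 5 or platelet pool 3. Rpl8 was higher by 0.83 ± 0.17 and Rpl13 by 0.75 ± 0.17. Many processed pseudogenes copy ribosomal protein genes, so single members are uncertain. Glycolysis genes split, with 13 of 18 higher and 3 lower, or 6 and 5 on library totals. The glucose transporter Slc2a3 was higher by 3.37 ± 0.49 and the hexokinase Hk1 by 2.59 ± 0.43, while Slc2a1 and Hk2, their counterparts in dividing and activated cells, were lower, at -2.34 ± 0.36 and -0.72 ± 0.19 (all named after their values were seen).

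Leukocyte genes were mostly higher in PBMCs, though platelet libraries held counts of each marker of B, T, NK cells and monocytes. The summed level of the monocyte and macrophage list was 1928 to 5622 CPM in platelets and 6307 to 8279 CPM in PBMCs. Of its 20 genes 16 were lower in platelets, 14 by at least 4-fold. Csf1r (ENSMUSG00000024621), the receptor that monocytes need to live, stood at 48.9, 25.7, 45.5, 10.7 and 27.9 CPM in platelets and 323, 377, 415, 319.8 and 347 CPM in PBMCs. PBMC pools lay within a narrow range, far above the highest platelet pool (log2 fold change -3.49 ± 0.37, adjusted P = 3.16e-05). Cd14 (ENSMUSG00000051439), a co-receptor for bacterial lipopolysaccharide, stood at 18.2, 3.47, 2.58, 1.73 and 1.22 CPM in platelets and 36.9, 174, 161, 155 and 65.9 CPM in PBMCs, with PBMC pool 1 lowest and platelet pool 1 highest (log2 fold change -4.54 ± 0.81, adjusted P = 0.000681). The markers of classical monocytes Ly6c2 and Ccr2 were lower in platelets (-2.35 ± 0.22 and -2.41 ± 0.24), as was Cx3cr1, high in patrolling monocytes (-2.99 ± 0.34). F13a1, a coagulation factor that megakaryocytes also make, was the 1 member that was higher (1.89 ± 0.43).

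Of 22 T cell genes 16 were lower in platelets and 1 higher, with a median of -1.48. Cd3e (ENSMUSG00000032093, chr9:44998740-45009627), a chain of the T cell receptor complex, stood at 9.43, 2.37, 7.73, 3.30 and 5.45 CPM in platelets and 35.3, 41.8, 55.6, 49.3 and 53.96 CPM in PBMCs. On the TMM scale platelet pool 1 was the highest platelet pool and lay well below each PBMC pool (log2 fold change -3.09 ± 0.35, adjusted P = 4.38e-05). Lat, an adaptor of the T cell receptor that platelets also use, was higher in platelets by 1.87 ± 0.41. Of 17 NK and cytotoxic genes 10 were lower and 1 (Eomes) higher, and of 20 B cell genes 11 were lower and 1 (Spib) higher. Spib was not called without any one of PBMC pools 1 to 4 or platelet pools 2 to 5 (adjusted P = 0.0514 to 0.078), and without platelet pool 1 there were 3 B cell genes higher. Cd79a, a chain of the B cell receptor, was lower at -1.11 ± 0.23 and Ms4a1, the CD20 antigen, at -0.99 ± 0.25. The summed level of the B cell list was 1320 to 3037 CPM in platelets and 2706 to 4677 CPM in PBMCs. Among dendritic cell genes 6 of 13 were lower and 3 higher, the 3 being Xcr1, Clec9a and Zbtb46. Xcr1, a chemokine receptor of the type 1 conventional subset, stood at 4.54, 15.1, 6.39, 5.86 and 4.28 CPM in platelets and 0.483, 0.733, 0.888, 0.327 and 0.377 CPM in PBMCs, with no overlap (log2 fold change 3.67 ± 0.45, adjusted P = 6.38e-05). Clec9a, a receptor of the same subset for dead cells, was higher by 2.35 ± 0.67 and Zbtb46, a transcription factor of conventional dendritic cells, by 1.06 ± 0.36 (all 3 named after their values were seen), though the call of Zbtb46 was lost without PBMC pool 4 (adjusted P = 0.05). Whether these transcripts came from dendritic cells or from platelets was not tested.

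Genes of antigen presentation were mostly lower in platelets. Of 10 MHC class II genes 7 were lower and none higher. H2-Aa was not called without PBMC pool 2, 3 or 5 or without platelet pool 4 (adjusted P = 0.0593 to 0.0793). H2-DMa was not called without PBMC pool 2 or 5 or without platelet pool 4 (adjusted P = 0.0539 to 0.0598). Class I genes parted, with 9 of 17 lower and 3 higher, or 5 higher without platelet pool 1 or platelet pool 5. B2m, the light chain shared by class I molecules, stood at 5134, 17299.7, 12644, 22852 and 4172 CPM in platelets and 703, 791, 914, 1121 and 809.6 CPM in PBMCs (log2 fold change 3.84 ± 0.55, adjusted P = 0.000167). H2-K1, a heavy chain, went the other way, with 623, 347, 587, 1009 and 281 CPM in platelets and 1107, 1662, 1707, 1740.3 and 1631 CPM in PBMCs (log2 fold change -1.46 ± 0.35, adjusted P = 0.00401). The peptide transporter Tap1 was lower too (-2.52 ± 0.27). These were named after their values were seen. Of 28 type I interferon response genes 8 were lower and 3 higher, the 3 being Ifit1, Ifit2 and Ifit3b. Among all genes tested 30.7% were lower and 29.3% higher, so the 8 lie near the share of all genes. Without PBMC pool 3, PBMC pool 4 or platelet pool 2, 5 interferon genes were lower. Lysosome genes were lower for 17 of 29, and among the 8 that were higher were the protease Ctsd (2.96 ± 0.45) and the membrane proteins Cd63 (2.37 ± 0.53) and Lamp1 (1.72 ± 0.35), of which Cd63 is also a protein of platelet dense granules. Of the 8, Lamp1, Lamp2, Hexa, Glb1 and Laptm5 were not called on library totals (adjusted P = 0.0983 to 0.959).

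Immediate early genes, which cells switch on within minutes of a stimulus, were lower in platelets for 22 of 26 and higher for none, with 17 past 4-fold and a median of -2.59. The 8 genes that fell most at a mean of 100 CPM or more in PBMCs were Nfkbiz, Tnfaip3, Fosb, Cd14, Atf3, Nr4a1, Fos and Sik1, and the 7 other than Cd14 are genes of this kind or of the NF-kappa B response. Tnfaip3 (ENSMUSG00000019850, chr10:19000910-19015657), a feedback inhibitor of NF-kappa B, stood at 19.2, 23.8, 24.2, 26.1 and 32.5 CPM in platelets and 85.8, 1035, 1079.8, 816 and 556 CPM in PBMCs. Platelet pools were alike, while PBMC pool 1 lay far below the other PBMC pools (log2 fold change -4.83 ± 0.59, adjusted P = 6.35e-05). Fosb (ENSMUSG00000003545, chr7:19302696-19310051), a subunit of the AP-1 transcription factor, stood at 7.51, 8.79, 8.14, 1.65 and 3.65 CPM in platelets and 76.9, 153, 155, 176 and 136 CPM in PBMCs (log2 fold change -4.57 ± 0.45, adjusted P = 2.26e-05). Its partners Fos and Jun were lower as well, at -3.67 ± 0.70 and -2.92 ± 0.24. The fold change was -5.10 ± 0.71 for Nfkbiz, a cofactor of NF-kappa B, -3.96 ± 0.40 for Atf3, a stress-responsive repressor, -3.72 ± 0.37 for the nuclear receptor Nr4a1 and -3.61 ± 0.36 for the kinase Sik1. Cytokines, chemokines and their receptors were lower for 31 of 41 and higher for 5, with a median of -2.15. A list of noncoding RNAs was lower for 8 of 15 and higher for 1, Gas5 (log2 fold change 0.73). It holds Malat1, Neat1, Xist and Kcnq1ot1 and also several host genes of small nucleolar RNAs, so it is not a list of nuclear RNAs alone. Malat1, named after its values were seen, stood at 344, 55.7, 142, 17.3 and 108 CPM in platelets and 728, 1425, 1618, 1224 and 1407 CPM in PBMCs. Platelet pool 1 held the most Malat1 of the platelet pools and platelet pool 4 the least (log2 fold change -3.26 ± 0.67, adjusted P = 0.00152).

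Red cell genes varied more between pools than between tissues. None of the 25 erythroid genes was called with edgeR, none had an unadjusted P under 0.05, and the counts were 0 of 15 with an adjusted value in DESeq2 and 4 of 25 in limma voom. Hba-a1, an alpha globin gene, stood at 648680, 46556, 187400, 45297 and 108830 CPM in platelets and 179940, 45177, 34258, 90717 and 12407 CPM in PBMCs, so pools of the same tissue differed by more than the tissues did (log2 fold change 1.52 ± 1.12, adjusted P = 0.266). The paired globin genes are near copies, and reads may have been split between them. Without pools 1 and 4, 6 of 24 erythroid genes were called, 5 higher and 1 lower, and with the pool number as a block 6 of 25, again 5 higher and 1 lower. Without PBMC pool 1 it was 3 of 25 and without platelet pool 1 it was 1. Of 22 neutrophil genes only Chil3, a lectin of immature neutrophils and of macrophages, was called, and it was lower in platelets (-3.23 ± 0.65). That count was 3 of 18 in DESeq2, 8 of 22 in limma voom and 13 of 21 without pools 1 and 4, 5 higher and 8 lower. With the pool number as a block it was 11 of 22, 2 higher and 9 lower, and on library totals 16 of 22, all lower. Without platelet pool 1 alone 14 of 22 were lower and none higher, without PBMC pool 5 it was 3, and without PBMC pool 2 or PBMC pool 4 it was 2. Of 13 melanocyte and melanoma genes 4 passed the filter, and 1 of these was higher and 2 lower in platelets. The summed level of the 4 was 11.18 to 24.1 CPM in platelets and 12.27 to 26.3 CPM in PBMCs. Pmel, a protein of the pigment granule, stood at 2.10, 2.20, 2.68, 0.751 and 3.96 CPM in platelets and 7.58, 15.001, 20.5, 17.7 and 17.6 CPM in PBMCs (log2 fold change -2.72 ± 0.40, adjusted P = 0.00018). Mitf, a transcription factor of melanocytes and of some blood cells, was lower by a smaller step (-0.84 ± 0.24, adjusted P = 0.0105), and Gpnmb, also a protein of macrophages, was not called (-1.09 ± 0.54, adjusted P = 0.101). Ptgds, a prostaglandin synthase, stood at 6.46, 18.4, 12.98, 12.8 and 7.92 CPM in platelets and 0, 0.0489, 0.374, 0.218 and 0.0754 CPM in PBMCs, with no overlap (adjusted P = 1.7e-05). Of the 9 genes that did not pass, Trpm1 had 0 to 20 counts in a library, Mlana, Tyr, Dct and Mc1r had 0 to 2, and Tyrp1, Sox10, Slc45a2 and Oca2 had none in any of the 10. Which cells the counts of this list came from was not tested. Of 346 immunoglobulin variable segments 111 passed the filter, and of these 64 were lower in platelets and 1 higher. Their mean log2 level was 0.152 to 0.883 in platelet pools and 1.31 to 1.79 in PBMC pools. Segments may thus have passed the filter through their PBMC level, which favours lower calls. As near copies of each other they are uncertain one by one.

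Pools of the same number were then compared across tissues, to ask which genes varied together between platelets and PBMCs. The deviation of each library from its own tissue mean was taken for 13627 genes, and the deviations of a platelet and a PBMC pool were correlated across genes, which are not independent replicates. For same-numbered pools the correlation was 0.553, 0.100, 0.250, 0.0818 and 0.521 in pools 1 to 5, and it was -0.526 to 0.409 for pairs of different number, with a mean of -0.0584. The mean over same-numbered pools was 0.301, the second highest of the 120 ways to pair the pools (exact permutation p = 0.0167, two-sided). It was 0.261 by Spearman's rank correlation (exact permutation p = 0.00833) and 0.424 over the 6496 genes with at least 10 CPM in both tissues. It was 0.385 and 0.344 without pool 2 or 3 (exact permutation p = 0.0417), and 0.348 and 0.301 without pool 4 or 5 (exact permutation p = 0.0833). Without pool 1 it was 0.140 (exact permutation p = 0.125 over 24 pairings, of which 0.0417 is the smallest possible), and without pools 1 and 4 it was 0.0889 (exact permutation p = 0.667 over 6 pairings). A second measure asked how many genes had their 5 pools in the same order in both tissues. It was 330 genes (2.42%), the most of any of the 120 pairings, which gave 42 to 330 with a median of 80.5 (exact permutation p = 0.00833, the smallest they can give). Without pool 1 the count was 806 of 14235 genes for the order of 4 pools (exact permutation p = 0.125). On library totals it was 1068 genes, the third highest of the pairings (exact permutation p = 0.025), and the mean correlation was 0.304.

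**Figure D2:**
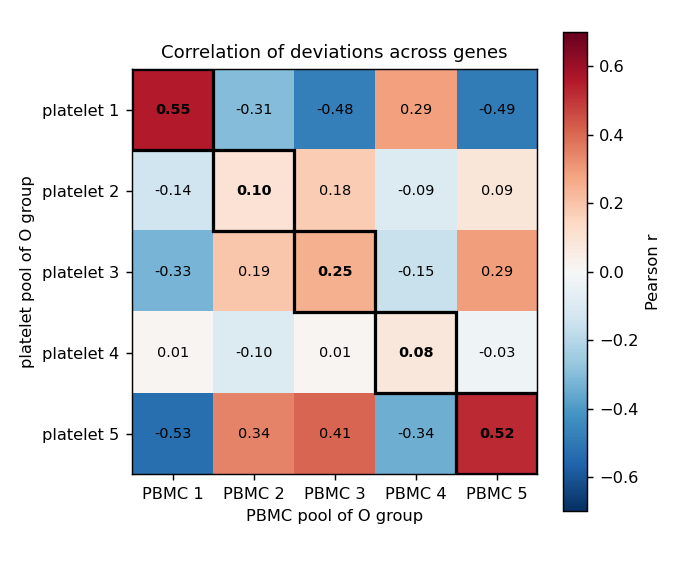
Pearson correlation across 13627 genes between the deviation of each platelet pool (rows) and each PBMC pool (columns) of O group from its tissue mean. Same-numbered pools are outlined; pools 1 and 5 reached 0.553 and 0.521, while pools 2 and 4 reached 0.100 and 0.0818.

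Genes that differed between pools in the same way in both tissues were sought with a model of tissue plus pool. At an adjusted P under 0.05, 591 of 13627 genes (4.34%) had a pool effect shared by both tissues, and 2194 had an unadjusted P under 0.05. Most of these genes were high in pool 1, which was the highest pool in both tissues for 525 of the 591 (88.8%), as it was for 1799 of all genes tested (13.2%). Pools 1 and 4 were the 2 highest pools in both tissues for 285 of the 591 (48.2%), as for 803 of all genes (5.89%). The opposite pattern, pool 1 lowest in both tissues, was seen for 16 of the 591 (2.71%), as for 2918 of all genes (21.4%). The count rests on pool 1. Without it 14 genes were called, all of them among the 591, while it was 742 without pool 2, 369 without pool 3, 712 without pool 4 and 263 without pool 5. Without pools 1 and 4 together 1 gene was called, and it was not among the 591. DESeq2 called 1652 genes and limma voom 519. The TMM factors that scale the counts were 0.426, 0.605, 0.793, 0.669 and 1.126 in platelet pools 1 to 5 and 1.035, 1.53, 1.60, 1.37 and 1.86 in PBMC pools, lowest in pool 1 in both tissues. On library totals alone 5138 genes (37.7%) were called, 467 of the 591 among them. Pool 1 was then the highest pool in both tissues for 399 of the genes called (7.77%) and the lowest for 4244 (82.6%), as it was the lowest for 7248 of all genes (53.2%).

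**Figure D3:**
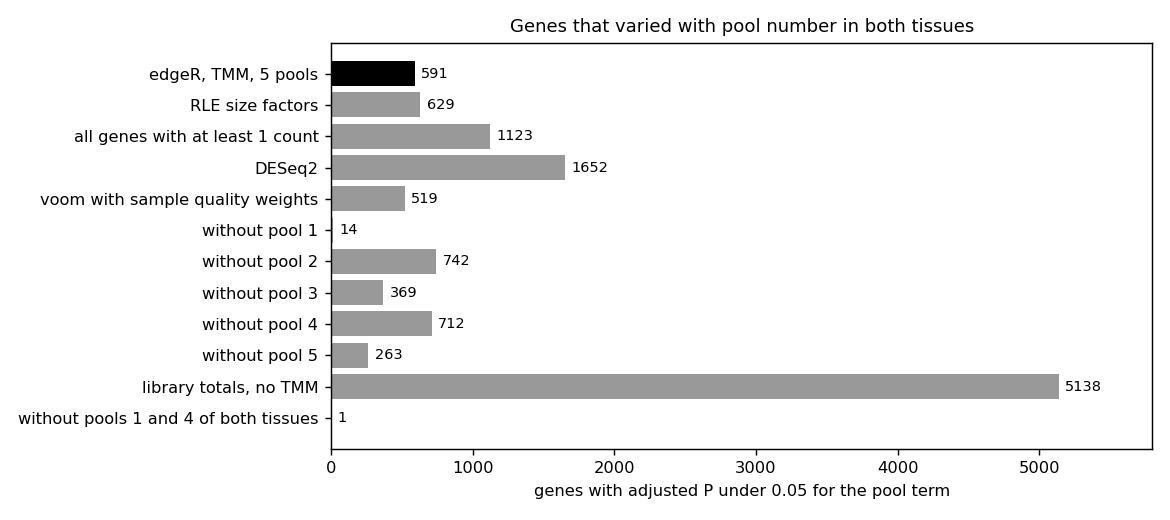
Number of genes with a shared pool effect at an adjusted P under 0.05 (bars, from 0) in each fit. The 5 fits of all 5 pools with scaling between libraries gave 519 to 1652 genes, leaving out pool 1 gave 14, leaving out pools 1 and 4 gave 1, and library totals without TMM gave 5138.

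The smallest P values fell into 2 patterns, and the first held genes that were high in pools 1 and 4, the pools of 3 mice, in both tissues. Gstt1 (ENSMUSG00000001663, chr10:75783813-75798584, on the reverse strand), a glutathione transferase, stood at 4010.3, 41.3, 43.4, 4451 and 8.69 CPM in platelet pools 1 to 5 and 319, 1.61, 2.24, 150.1 and 0.830 CPM in PBMC pools 1 to 5. Both tissues thus had 2 pools that were high by far and 3 that were low (adjusted P = 0.00037 for the shared pool effect). The tissue difference was not called in the fit without the pool number as a block (adjusted P = 0.103). In each pool number the platelet level of Gstt1 was above the PBMC level. In C and S group libraries, on a scale set over all 30 libraries, Gstt1 stood at 4.16 to 18.9 CPM in platelets and at 0.0861 to 1.99 CPM in PBMCs, far below pools 1 and 4 of O group in the same tissue. Relative to Pf4, a platelet gene, Gstt1 counts were 280, 3.96, 8.71, 243 and 4.13 per 1000 Pf4 counts in platelets and 325, 10.9, 13.4, 285 and 8.79 in PBMCs. The ratio was thus high in pools 1 and 4 in both fractions.

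Prrt4 (ENSMUSG00000079654, chr6:29169232-29179584), which encodes a proline-rich membrane protein, had the same pattern, with 524, 0.592, 1.03, 371 and 0.405 CPM in platelets and 58.8, 0, 0.0467, 21.4 and 0.151 CPM in PBMCs (adjusted P = 0.000337). Hfe2 (ENSMUSG00000038403, chr3:96525172-96529210), the hemojuvelin that sets hepcidin output in liver, stood at 525, 12.5, 10.6, 534 and 4.64 CPM in platelets and 58.6, 0.586, 0.514, 22.4 and 0.264 CPM in PBMCs (adjusted P = 0.000337). Col18a1 (ENSMUSG00000001435, chr10:77052178-77166548), the collagen from which endostatin is cut, stood at 159, 10.3, 12.5, 122 and 4.82 CPM in platelets and 18.00, 0.440, 1.17, 6.80 and 0.339 CPM in PBMCs (adjusted P = 0.000786). In all 3 genes pools 1 and 4 were the 2 highest pools of each tissue. Cd59a (ENSMUSG00000032679, chr2:104095801-104115354), which shields blood cells from complement, had the same order of pools in both tissues, with 916, 176, 105, 886 and 38.8 CPM in platelets and 90.2, 5.67, 4.58, 37.2 and 1.47 CPM in PBMCs (adjusted P = 0.00173). Tpm2, a tropomyosin named after its values were seen, stood at 727, 101, 78.8, 832 and 44.2 CPM and 88.2, 3.81, 5.75, 42.3 and 2.45 CPM (adjusted P = 0.00173). Gstt2, which lies beside Gstt1 and was not called, stood at 19.2, 5.07, 6.39, 10.6 and 6.03 CPM in platelets and 8.83, 6.65, 6.12, 7.46 and 8.86 CPM in PBMCs (adjusted P = 0.421), and Cd59b had an adjusted P of 0.207 (both named after their values were seen). Gstt1, Hfe2, Col18a1, Cd59a and Tpm2 were among the 14 genes still called without pool 1. The others were Mxra7, Ankrd33b, Majin, Alox5, Aldh1l1, Rexo2, Clca3a1, A930009A15Rik and Gm6093, all but Majin high in pools 1 and 4, while Prrt4 did not pass the filter on low counts there.

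The second pattern held genes that were high in pool 1 alone. Tfrc (ENSMUSG00000022797, chr16:32608920-32632794), the transferrin receptor by which erythroblasts take up iron, stood at 539, 6.68, 10.9, 8.86 and 10.04 CPM in platelets and 743, 28.5, 27.9, 36.6 and 28.3 CPM in PBMCs (adjusted P = 0.000786). Pool 1 exceeded every other pool by more than 10 times in both tissues. No tissue difference was called in the fit without the pool number as a block (adjusted P = 0.747), though in each pool number the platelet level of Tfrc was below the PBMC level. Cpox (ENSMUSG00000022742, chr16:58670292-58717636), an enzyme of heme synthesis, stood at 149, 13.9, 12.5, 18.4 and 16.4 CPM in platelets and 124, 12.6, 13.5, 16.6 and 14.2 CPM in PBMCs (adjusted P = 0.000337). Abcg2 (ENSMUSG00000029802, chr6:58584523-58695676), an exporter of porphyrins and drugs, stood at 64.98, 3.13, 3.71, 7.21 and 3.06 CPM and 41.9, 2.83, 2.99, 6.42 and 2.04 CPM, with the same order of pools in both tissues (adjusted P = 0.000337). Art4 (ENSMUSG00000030217, chr6:136848451-136857733), which carries the Dombrock blood group in people, stood at 48.04, 1.18, 2.06, 1.88 and 1.71 CPM in platelets and 33.2, 1.12, 1.64, 2.01 and 0.867 CPM in PBMCs (adjusted P = 0.000337). The other genes with the smallest P were Cpeb4, an RNA-binding protein induced late in red cell maturation, Trak2, an adaptor for mitochondrial transport, Ccdc92b and Sowaha. Trak2 stood at 757, 95.3, 79.1, 93.3 and 87.3 CPM in platelets and 768, 72.8, 66.96, 100.4 and 64.9 CPM in PBMCs, and Ccdc92b at 44.9, 0.761, 1.65, 2.33 and 0.810 CPM and 51.2, 1.37, 0.981, 2.12 and 0.603 CPM. In each of these 4 genes pool 1 was the highest in both tissues, with adjusted P values of 0.000923, 0.000857, 0.000337 and 0.000337.

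Promoters of these genes, the windows of 250 bases before to 50 after a start site, were read from RefSeq (GRCm38.p6) because the genes moved together. The letters AGATAA, a form of the site that GATA factors bind, were searched on both strands. They were found for 2 of the 15 genes with a window among the 18 named by the pool test or by their order, and for 12.7% of all 27025 genes with a window, so no more was read from it. The windows shown are those of leading genes of each pattern, in the direction of the gene, with AGATAA or its reverse complement TTATCT in capitals. Gstt1 (chr10:75797682-75797981, reverse strand) and Prrt4 (chr6:29179535-29179834, reverse strand) were high in pools 1 and 4 and hold no such letters in these windows. Art4 (chr6:136857551-136857850, reverse strand) and Cpox (chr16:58669958-58670257, forward strand) were high in pool 1 and hold 1 match each.
Gstt1: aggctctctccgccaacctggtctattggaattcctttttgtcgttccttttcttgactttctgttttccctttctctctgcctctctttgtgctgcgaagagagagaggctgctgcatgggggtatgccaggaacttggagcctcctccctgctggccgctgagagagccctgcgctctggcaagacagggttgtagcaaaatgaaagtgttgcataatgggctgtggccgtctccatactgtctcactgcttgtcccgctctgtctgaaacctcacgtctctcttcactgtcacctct
Prrt4: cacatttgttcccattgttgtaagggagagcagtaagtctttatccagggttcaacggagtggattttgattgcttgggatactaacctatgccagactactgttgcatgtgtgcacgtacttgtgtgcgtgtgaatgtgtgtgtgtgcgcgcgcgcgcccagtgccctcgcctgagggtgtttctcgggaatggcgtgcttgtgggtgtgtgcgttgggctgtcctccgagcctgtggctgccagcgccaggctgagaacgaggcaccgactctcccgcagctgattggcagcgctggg
Art4: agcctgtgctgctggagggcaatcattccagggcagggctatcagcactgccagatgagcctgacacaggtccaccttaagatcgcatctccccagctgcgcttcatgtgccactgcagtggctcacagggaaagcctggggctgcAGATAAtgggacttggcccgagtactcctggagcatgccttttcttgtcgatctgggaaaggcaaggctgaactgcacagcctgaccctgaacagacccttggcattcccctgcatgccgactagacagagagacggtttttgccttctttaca
Cpox: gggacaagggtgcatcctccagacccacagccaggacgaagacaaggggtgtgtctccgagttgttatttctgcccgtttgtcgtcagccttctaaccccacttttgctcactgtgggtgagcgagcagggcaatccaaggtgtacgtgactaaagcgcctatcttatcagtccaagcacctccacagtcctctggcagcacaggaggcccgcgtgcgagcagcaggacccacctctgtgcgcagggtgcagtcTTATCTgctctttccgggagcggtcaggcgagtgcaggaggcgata

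Among the lists, and on the TMM scale, the erythroid one had the largest share of genes with a shared pool effect, 15 of 25 (60.0%), and pool 1 was highest in both tissues for all 15. They included Slc4a1 and Sptb of the red cell membrane, Rhag and Kel of the blood groups, and Klf1, the transcription factor of the red cell lineage. Klf1, named after its values were seen, stood at 31.3, 0.592, 0.515, 3.00 and 1.08 CPM in platelets and 15.3, 0.0977, 0.187, 1.47 and 0.113 CPM in PBMCs (adjusted P = 0.00147). Pools other than 1 held little of it, with pool 4 next in both tissues. The 4 globin genes, Alas2, Fech and Bpgm were not among the 15. Hba-a1 (adjusted P = 0.626) and Alas2 (adjusted P = 0.246), the first enzyme of heme synthesis in red cells, followed the hemoglobin share of each library, which was high in platelet pools 3 and 5 as well. The mean log2 level of the list was 11.40, 6.92, 8.29, 7.42 and 7.36 in platelet pools 1 to 5 and 10.48, 7.24, 6.85, 8.55 and 5.79 in PBMC pools. Pool 1 was thus highest in both tissues and the lower pools came in a different order. Of the mitotic list 8 of 24 genes (33.3%) had a shared pool effect, among them the cyclins Ccna2, Ccnb1 and Ccnb2 and the proliferation marker Mki67. Mki67 stood at 906, 18.3, 20.1, 27.2 and 15.3 CPM in platelets and 513, 28.7, 27.2, 71.4 and 19.2 CPM in PBMCs (adjusted P = 0.00147), again high in pool 1 only. DESeq2 called 21 erythroid and 13 mitotic genes, and limma voom 9 and 7. Without pool 5 edgeR called 9 erythroid genes. On library totals 16 erythroid (64%) and 11 mitotic genes (45.8%) were called, next to 37.7% of all genes tested, and the B cell list had the largest share, 20 of 20. Without pool 1, edgeR called no gene of either list or of any other list, while 952 of all 14235 genes had an unadjusted P under 0.05.

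**Figure D4:**
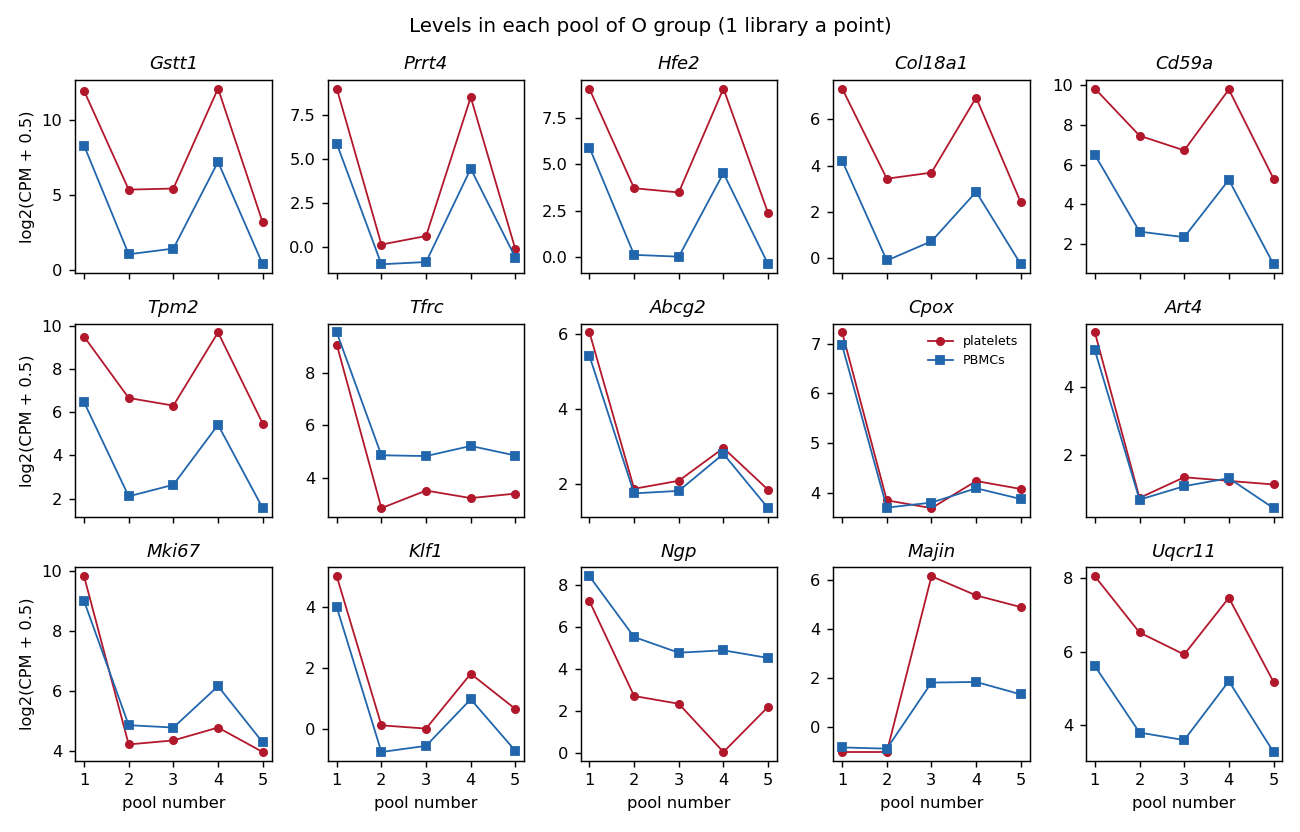
Level of 15 genes by pool number (x axis) in platelets (red) and PBMCs (blue) of O group, as log2(CPM + 0.5) on the y axis. Each point is 1 library; Gstt1, Prrt4, Hfe2, Col18a1, Cd59a and Tpm2 peaked in pools 1 and 4, Tfrc, Abcg2, Cpox, Art4, Mki67, Klf1 and Ngp in pool 1, Uqcr11 ran in the order 1, 4, 2, 3, 5, and Majin was low in pools 1 and 2.

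On the TMM scale oxidative phosphorylation gave the largest number of genes of any list, 38 of 76 (50%), and 37 of them were highest in pool 1 in both tissues. The range between pools was narrower than for red cell genes. Uqcr11, a subunit of complex III named after its values were seen, stood at 264, 91.4, 60.3, 176 and 35.8 CPM in platelets and 48.3, 13.5, 11.6, 36.3 and 9.20 CPM in PBMCs (adjusted P = 0.0028). Pools ran in the order 1, 4, 2, 3, 5 in both tissues, which is also the order of the TMM factors of PBMC pools from low to high, and 23 genes of the list had one order of pools in both. Cox7a2 and Cox6a1, small subunits of cytochrome c oxidase named after their values were seen, had the same order at 469.9, 95.9, 73.9, 192 and 36.8 CPM in platelets and 98.1, 19.6, 15.5, 64.8 and 15.5 CPM in PBMCs for Cox7a2 (adjusted P = 0.00378 and 0.00288). The mean log2 level of the list was 6.98, 5.77, 5.56, 6.33 and 5.29 in platelets and 5.41, 4.63, 4.54, 5.14 and 4.48 in PBMCs. On library totals it was 5.76, 5.06, 5.23, 5.76 and 5.46 in platelets, and in PBMCs it was 5.46 in pool 1, 5.59 in pool 4 and 5.36 or less in the other pools, a narrower range with pools 1 and 4 still the 2 highest, and 31 of 76 genes were called (40.8%), near the 37.7% of all genes. Mitochondrially encoded genes did not pass the test, with 0 of 12 called by edgeR, 1 at an unadjusted P under 0.05, 2 by DESeq2 and 0 by limma voom. Cytosolic ribosomal protein genes gave 1 of 87 called (Rpl41), 5 at an unadjusted P under 0.05, and a mean log2 level of 8.15 to 8.53 in platelets and 7.46 to 7.68 in PBMCs. The hemoglobin share of the libraries was highest in pool 1 in both tissues. The ribosomal RNA gene CT010467.1 was low in PBMC pools 1 and 4, whereas in platelets it stood at 10.04, 13.07, 10.03, 5.62 and 3.94 CPM in pools 1 to 5, with pool 5 lowest. The part of the globin and ribosomal RNA levels in these counts was not tested. Without pool 3 or without pool 5, 15 genes of the oxidative phosphorylation list were called.

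**Figure D5:**
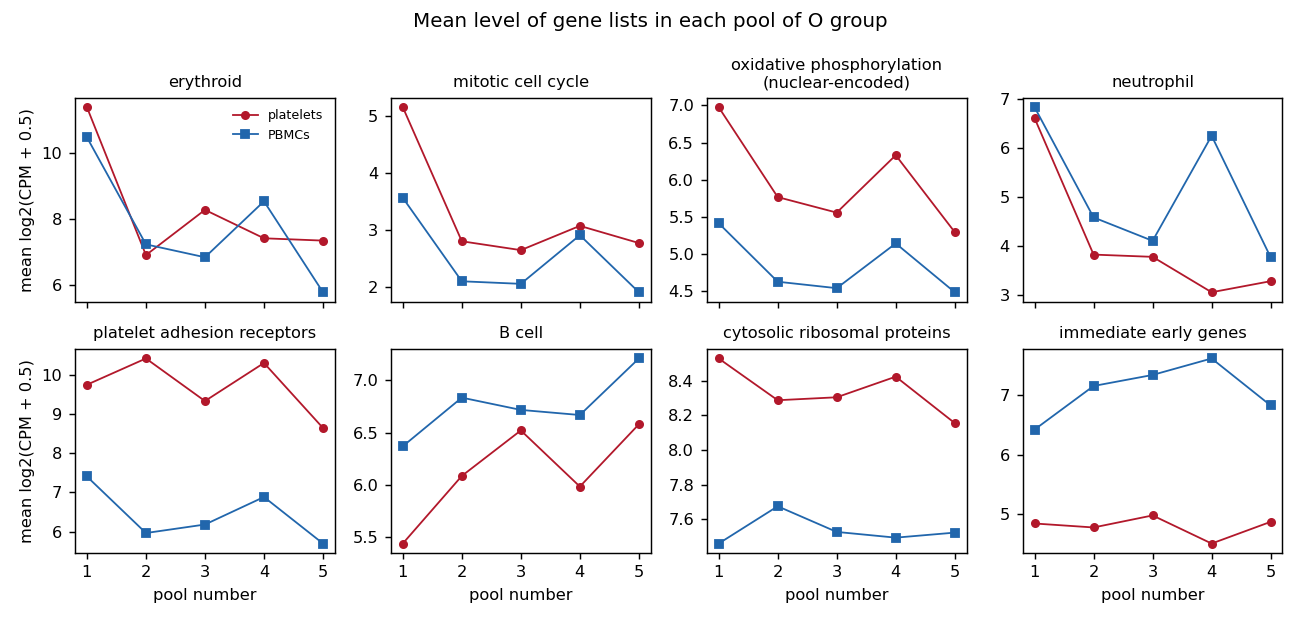
Mean level of 8 gene lists by pool number (x axis) in platelets (red) and PBMCs (blue) of O group, as the mean of log2(CPM + 0.5) over tested members (y axis). Erythroid, mitotic, oxidative phosphorylation and neutrophil lists were highest in pool 1 in both tissues on the TMM scale, while the ribosomal protein list stayed within 8.15 to 8.53 in platelets and 7.46 to 7.68 in PBMCs.

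Neutrophil genes had a shared pool effect for 7 of 22 (31.8%). They were Mmp8, Ltf, Camp, Ngp and Lcn2, proteins of the granules that neutrophils fill in the marrow, and the surface proteins Ly6g and Cd177. Ngp, named after its values were seen, stood at 148, 6.00, 4.53, 0.526 and 4.05 CPM in platelets and 337, 44.95, 26.6, 28.8 and 22.3 CPM in PBMCs (adjusted P = 0.0118). Pool 1 was highest in both tissues, whereas pool 4 was lowest among platelets and in the middle among PBMCs. S100a8, a calcium-binding protein of mature neutrophils, stood at 1692, 315, 214, 169 and 173 CPM in platelets and 889, 89.6, 48.6, 788 and 45.96 CPM in PBMCs. Its PBMC level was high in pool 4 as well, and it was not called (adjusted P = 0.146). Csf3r and Cxcr2, receptors of mature cells, were not called either. DESeq2 called 20 of the 22 neutrophil genes and limma voom 6. By edgeR the count was 16 on library totals, 17 without pool 4, 7 without pool 2, 3 without pool 3, 2 without pool 5 and 0 of 21 without pool 1. Of other genes, 4 of 28 in the interferon list (Ifit3b, Ifi44, Rsad2 and Ifi27l2a, with 13 by DESeq2 and 1 by limma voom) had a shared pool effect. In the iron and heme list it was 3 of 12 (Tfrc, Blvrb, Ncoa4). Over all genes tested the share was 4.34% by edgeR, 12.1% by DESeq2 and 3.81% by limma voom.

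In platelet lists, 1 adhesion receptor of 16 (Cd36, 6.25%), 4 agonist receptor and signalling genes of 32 (F2rl3, P2rx1, Adra2a and Tbxas1, 12.5%), 1 granule gene of 24 (Selp, 4.17%) and 2 cytoskeleton genes of 20 (Tuba4a and Tpm1, 10.0%) had a shared pool effect by edgeR, next to 4.34% of all genes tested. Without pool 2 these counts were 3, 7, 4 and 5, and without pool 5 they were 1, 2, 0 and 1. DESeq2 called 7, 13, 11 and 13 genes of these lists and limma voom 2, 5, 3 and 4, and on library totals the counts were 3, 8, 5 and 4. The mean log2 level of the adhesion list was 9.74, 10.42, 9.33, 10.30 and 8.64 in platelets and 7.40, 5.96, 6.18, 6.88 and 5.70 in PBMCs. Platelet pool 2 was highest among platelets while PBMC pools 1 and 4 were highest among PBMCs, so the order of pools differed between tissues. Of leukocyte lists, 1 of 20 B cell genes (Ebf1) and 2 of 17 NK and cytotoxic genes (Gzma, Ccl5) had a shared pool effect. On library totals, where most genes were lowest in pool 1, 20 of 20 B cell, 16 of 17 NK and 20 of 22 T cell genes were called. For 22 T cell genes edgeR with TMM called 0, with 10 at an unadjusted P under 0.05, 4 called by DESeq2 and 0 by limma voom. For 20 monocyte genes edgeR called 0, with 2 at an unadjusted P under 0.05 and 1 each by DESeq2 and limma voom. For 27 histone genes edgeR called 0, with 10 at an unadjusted P under 0.05, 9 by DESeq2 and 0 by limma voom. A single immediate early gene of 26 (Nr4a2) was called.

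Majin (ENSMUSG00000024786, chr19:6184388-6224225), which tethers telomeres in meiosis and was named after its values were seen, stood apart by other pools. Its levels were 0, 0, 70.4, 40.8 and 29.2 CPM in platelets and 0.0689, 0.0489, 3.04, 3.10 and 2.04 CPM in PBMCs (adjusted P = 0.00297). It was at 0 or near 0 in pools 1 and 2 of both tissues and present in pools 3, 4 and 5 of both. Its level also varied widely without tumors, and on the scale of all 30 libraries C group platelets ranged from 15.2 to 396 CPM.

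Last, the difference between platelets and PBMCs in O group was set against that in C group, to ask where blood of mice with large tumors departs from blood of mice without them. Over 20 libraries and 15836 genes, no gene was called (0%) with edgeR, where the smallest adjusted P was 0.0986, and 847 genes had an unadjusted P under 0.05. DESeq2 called 1 gene and limma voom 0. Without pools 1 and 4 of O group, a fit chosen after seeing the data, edgeR called 0 of 16477 genes (smallest adjusted P = 0.5415). The gene nearest to the threshold was Xkr5 (ENSMUSG00000039814, chr8:18932729-18950975), a member of the XK family of membrane proteins (adjusted P = 0.0986). On a scale set over all 30 libraries it had no count in any O group platelet pool and 0.103 to 0.403 CPM in C group platelets, while PBMCs held 0.979 to 1.52 CPM in O group and 0.861 to 1.24 CPM in C group. It passed the test without platelet pool 4 of C group (adjusted P = 0.0477), and without platelet pool 1 of O group the noncoding gene Gm37261 passed instead (adjusted P = 0.031). The gene called by DESeq2 was 4933439C10Rik (ENSMUSG00000072893, chr11:59505662-59513647), a noncoding transcript (DESeq2 adjusted P = 0.00144), which stood at 0.431 ± 0.290 CPM in O group platelets against 1.68 ± 0.385 CPM in C group platelets and at 4.86 ± 1.19 and 4.70 ± 0.504 CPM in PBMCs (SD, n = 5 pools). With edgeR the change in its tissue difference was -2.14 ± 0.45 on the log2 scale (adjusted P = 0.467). Of the other genes with the smallest P, Ankrd23, Gm20522 and Gm38248 had lower values for platelets against PBMCs in O group than in C group, and Chadl, Cad, Rab26os, A430046D13Rik and Pstpip2 higher ones. Cad, the enzyme that starts pyrimidine synthesis, had a change of 0.71 ± 0.17 on the log2 scale (adjusted P = 0.706), and none of these passed the test. Gm20522 and Rab26os are annotated as antisense to other genes, and whether the counting used strand is not given in the sources used here, so their reads and those of their partners may not be told apart. Among lists, the erythroid one had the largest share of genes at an unadjusted P under 0.05, 13 of 25, with a median change of -2.64 on the log2 scale and no gene past the adjusted threshold. These list values include pools 1 and 4 of O group, which were not left out here. Hemoglobin took 5.29% to 27.6% of the counts of C group platelets and 3.29% to 9.39% of C group PBMCs. Platelet pools of C group held 5 or 10 mice and those of O group 3 to 5, and the PBMC pools of C group 5 each, so pool size and group overlapped only in part, and the part of pool size was not tested.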

How the data were processed

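The deposited files are gene counts that the authors made per library (per the submitters' notes with HISAT2 2.0.5, featureCounts 1.5.0-p3 and DESeq2 1.16.1, on mm9). How ambiguous reads and strand were treated is not given in the sources used here. Symbols and positions were matched by Ensembl ID to a GRCm38 annotation (54409 of 54532 IDs), so positions are not on the build named in the notes. Samples were grouped by their titles. Counts were tested with edgeR 4.0.16 (filterByExpr, TMM factors, quasi-likelihood F test, Benjamini-Hochberg adjustment, adjusted P under 0.05), and DESeq2 1.42.0 and limma 3.58.1 (voom with sample quality weights) were alternatives, in R 4.3.3. Scaling to library totals without TMM was added after seeing the data. The model of tissue plus pool has 4 residual degrees of freedom. Correlations used log2 CPM with a prior count of 2 and exact permutation over the 120 pairings. The methods were tested on simulated data. Pools were taken to hold different mice, and P values measure only the spread between pools.

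Gene lists, the pools compared and the tests were chosen with earlier results of these data known. Genes were named by a rule: 8 genes with the largest fold change in each direction among those called, without overlap and with a mean of at least 100 CPM in the higher tissue; 12 genes with the smallest P of the pool term; 8 genes with the same order of pools, at least 5 CPM in both tissues and the widest range; 5 genes in each direction for O against C group; and the first 4 tested of each list. A few genes chosen by this rule are not reported here.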

Additional observations from a re-analysis of the deposited data

Results flagged for a closer look

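In groups of 5 libraries, a library was marked where its gap to the nearest other was over 0.71 of the whole range (Dixon's critical value). Of 102 such groups 18 were marked, 17 of them for pool 1. Chance marks about 1 in 20, but 13 of the marks are on single genes that were tried because they had the smallest P of the shared pool term, so this tally cannot be read against that rate. Values are log2 levels, with the nearest other library in parentheses.

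In platelets, pool 1 was the highest library for the mean of the iron storage and heme list at 7.40 (5.86), the mitotic list at 5.16 (3.07) and the neutrophil list at 6.61 (3.82). Among single genes of platelets, pool 1 was the highest for Tfrc at 9.07 (3.51), Abcg2 at 6.03 (2.95), Art4 at 5.60 (1.36), Cpox at 7.22 (4.24), Ccdc92b at 5.50 (1.5), Cpeb4 at 8.31 (5.70) and Trak2 at 9.56 (6.58).

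In PBMCs, pool 1 was the highest library for Tfrc at 9.54 (5.21), Art4 at 5.08 (1.33), Cpox at 6.96 (4.10), Ccdc92b at 5.69 (1.39), Cpeb4 at 7.73 (5.46) and Trak2 at 9.59 (6.66), and for the mean of the basophil, mast cell and eosinophil list at 2.75 (1.79). That these 6 genes were marked in both tissues follows from how they were chosen. The remaining mark was on PBMC pool 5, the lowest for the lysosome list at 6.30 (6.41).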

How the results depend on the processing

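The number of genes that differed between platelets and PBMCs stayed within 7632 to 10631 (8186 in the report; 8462 on library totals, 1253 higher and 7209 lower) in every alternative, and the 16 genes named by the rule for this comparison kept their call and direction in all 272 values. Genes with a shared pool effect numbered 591, and 1123 with all genes kept, 1652 with DESeq2, 5138 on library totals without TMM (chosen after seeing the data), 14 to 742 with 1 pool left out (14 without pool 1, 263 without pool 5, 369 without pool 3) and 1 without pools 1 and 4, a fit chosen after seeing the data. The mean correlation of same-numbered pools was 0.140 to 0.385 with 1 pool left out (0.301 with all; exact p = 0.125 without pool 1 and 0.0833 without pool 4 or 5) and 0.0889 without pools 1 and 4. Genes with 1 order of pools in both tissues numbered 806 to 1401 with 1 pool left out and 2739 without pools 1 and 4, where fewer pools have fewer orders. For O against C group, DESeq2 called 1 gene and leaving out 1 library gave 0 to 1, against 0 in the report. Values for single genes lost the call in 31 of 195 alternatives for the pool term. Correlations of same-numbered pools were not all over 0.1, and 3 platelet and 2 PBMC libraries correlated best with their own number. The pool number was not used as a block in the report's test because the study names no block in its own differential test. The block was run as an alternative. Both fractions came from the same blood samples, but whether same-numbered pools held the same mice is not given, although pool sizes match and the labelled pairing ranked 1 of 120 for genes with 1 order of pools and 2 of 120 for the mean correlation. With the replicate block, 8697 genes differed between the tissues (4188 higher, 4509 lower, 7932 shared with the report), and for O against C group the count stayed 0. Depth limits the low genes: a gene with no count, such as Tyrp1, was not detectable, which does not show that it was absent.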

Other observations

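Among all genes tested 29.3% were higher and 30.7% lower in platelets of O group than in PBMCs. Of 12 genes of iron storage and heme, 3 were higher and 3 lower, or 5 higher without PBMC pool 1. The counts of 3 are not above the shares of all genes, and no more was read from them. The ferritin heavy chain gene Fth1 stood at 8500.0, 24109.8, 9683, 13065 and 5172 CPM in platelet pools 1 to 5 and 1689, 846, 837, 1440.4 and 539 CPM in PBMC pools 1 to 5. The groups did not overlap (log2 fold change 3.50 ± 0.54, adjusted P = 0.000267). The light chain gene Ftl1 was higher by 2.58 ± 0.65 (adjusted P = 0.00565), although PBMC pool 1 lay above platelet pool 5. Of 6 tested progenitor genes 3 were higher and 2 lower, or 5 of 8 tested higher without any one PBMC pool or without platelet pool 1. The lower gene Myb lost its call without any one of PBMC pools 2 to 5 or platelet pools 2 to 5 (adjusted P = 0.0678 to 0.0801). Cd34, also an endothelial surface protein, stood between 9.27 and 20.4 CPM in platelets and between 0.151 and 0.689 CPM in PBMCs (log2 fold change 4.94 ± 0.41, adjusted P = 9.26e-06). Of 11 basophil, mast cell and eosinophil genes 2 were higher and 4 lower, and of 7 plasma cell genes 1 was higher and 3 lower (1 and 6 with the pool number as a block). Among 21 stress and heat shock genes 9 were higher and 3 lower, or 5 lower without platelet pool 1 or with the block, and on library totals 1 was higher and 10 lower.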
